A study of Mus musculus with 10 samples.

Results

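Collagen chains are the subunits that wind together in threes into the collagens of the extracellular matrix. The chains described here are the genes of the array's annotation table whose symbol is Col, a number, the letter a and a number, such as Col1a1, read by probe sets that the table assigns to 1 gene. The rule found 42 genes on 82 probe sets, of 18193 genes on 34945 such probe sets in all. They comprise 11 fibrillar chains, 9 chains of basement membranes, 9 FACIT chains (fibril-associated collagens with interrupted triple helices) and 13 others, among them the collagen VI chains and the transmembrane collagens. RNA came from mouse embryos at 15 days post coitum (dpc), from the gallbladder and from the cystic duct, the tube that joins it to the bile duct, and was hybridised to Affymetrix arrays. The 10 samples form 5 groups of 2, which the series calls biological replicates: wild type cystic duct of ICR, Sox17+/- and wild type gallbladder of ICR, and Sox17+/- and wild type gallbladder of B6. ICR is an outbred mouse stock and B6 an inbred strain. All embryos were of the same stage, and the Sox17+/- embryos carry 1 altered copy of Sox17, a transcription factor gene of the endoderm. The labels do not describe that allele, and they do not say whether embryos were pooled or which samples share a litter.

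Fibrillar collagens form the banded fibres that give connective tissue its strength. Basement membrane collagens, type IV above all, form the sheet on which epithelia and muscle cells rest, and FACIT collagens sit on the surface of fibrils. In the wall of the gallbladder and ducts these proteins are made mainly by fibroblasts and smooth muscle cells, with a share of the basement membrane chains coming from epithelium and endothelium. RNA of whole tissue was measured, so fewer cells that make a chain and less of its RNA per cell cannot be told apart.

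Promoter sequences of RefSeq (assembly GRCm38.p6), running from 250 bases before to 50 bases after a transcription start, were found for 33 of the 42 genes. The windows are printed for 4 genes whose signals are described below, and no signal was related to a window. Col4a1 and Col4a2, the chains of the common type IV collagen, are transcribed away from each other from starts 21 bases apart, and their windows overlap by 78 bases. Col5a1 and Col11a1, related chains that are built into the core of thin fibrils, gave the smallest p values of all collagen chains for the cystic duct. Capitals mark the CCAAT box (CCAAT or ATTGG) and the GC box (GGGCGG or CCGCCC), on either strand. The windows are, for Col4a1, chr8:11312777-11313076 on the minus strand, for Col4a2, chr8:11312555-11312854 on the plus strand, for Col5a1, chr2:27886175-27886474 on the plus strand, and for Col11a1, chr3:114030290-114030589 on the plus strand.
Col4a1: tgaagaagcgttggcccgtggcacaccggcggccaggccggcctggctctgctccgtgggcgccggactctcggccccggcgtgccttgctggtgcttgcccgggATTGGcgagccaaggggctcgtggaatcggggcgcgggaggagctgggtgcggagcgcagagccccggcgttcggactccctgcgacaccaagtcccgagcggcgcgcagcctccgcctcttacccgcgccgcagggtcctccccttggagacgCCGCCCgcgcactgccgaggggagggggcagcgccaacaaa
Col4a2: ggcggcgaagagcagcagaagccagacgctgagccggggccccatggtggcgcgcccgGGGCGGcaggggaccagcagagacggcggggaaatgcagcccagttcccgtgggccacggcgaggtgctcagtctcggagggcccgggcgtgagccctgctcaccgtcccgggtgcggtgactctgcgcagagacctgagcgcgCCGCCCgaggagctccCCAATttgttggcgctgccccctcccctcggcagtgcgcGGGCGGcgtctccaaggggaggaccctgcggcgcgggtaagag
Col5a1: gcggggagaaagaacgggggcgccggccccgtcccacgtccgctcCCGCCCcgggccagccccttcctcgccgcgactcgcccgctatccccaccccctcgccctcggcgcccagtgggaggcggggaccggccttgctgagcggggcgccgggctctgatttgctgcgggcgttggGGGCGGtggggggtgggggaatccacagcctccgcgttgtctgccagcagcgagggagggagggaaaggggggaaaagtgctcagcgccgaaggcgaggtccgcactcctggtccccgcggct
Col11a1: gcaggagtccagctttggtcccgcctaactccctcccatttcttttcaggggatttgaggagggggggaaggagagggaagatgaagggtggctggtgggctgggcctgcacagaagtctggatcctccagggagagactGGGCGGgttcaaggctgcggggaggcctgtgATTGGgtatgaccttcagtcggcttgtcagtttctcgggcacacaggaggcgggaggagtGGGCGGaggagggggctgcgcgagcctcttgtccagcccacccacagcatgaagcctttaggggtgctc
A GC box was present in the windows of 21 of the 33 collagen genes (63.6%) and of 38.2% of 27025 genes with a window. A CCAAT box was present in 13 collagen genes (39.4%) and in 41.1% of all. A TATA box (TATAAA or TTTATA) was present in 5 collagen genes (15.2%) and in 15.7% of all. The letters ACAAT or ATTGT, a core bound by SOX factors, occurred in 1 collagen gene, Col3a1 (3.03%), and in 34.4% of all. The SOX core and the CCAAT box share the letters CAAT but cannot match at the same place, and such matches describe the letters of a window of 300 bases, not sites that a factor was shown to bind.

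Values below are log2 signals after quantile normalization, so a difference of 1 is a 2-fold change, and a signal compares samples for 1 gene, not 1 gene with another. A gene was read by its brightest probe set. Of the 42 chains, 41 were above the floor on low signals (4.47 log2), and Col6a5 was below it with a mean of 2.98. A chain is called changed where limma's p, adjusted over all 14696 genes tested, was under 0.05. The gallbladder replicates correlated at r = 0.966 to 0.996 across genes, whereas the cystic duct pair reached 0.898. The lowest gallbladder value was that of the ICR wild type pair, to which the cystic ducts are compared. Its samples differed by over 1 log2 unit in 4.14% of genes, against at most 0.864% in the other gallbladder pairs. The cystic duct samples differed from each other by over 1 log2 unit in 24.3% of genes and in 9 of the 41 collagen chains. Sox17 itself had log2 signals of 7.65 and 7.90 in Sox17+/- gallbladders of ICR, against 9.52 and 9.24 in wild type, and of 8.03 and 7.91 in Sox17+/- gallbladders of B6, against 9.29 and 9.04 in wild type. Every Sox17+/- gallbladder lay below every wild type gallbladder, and the wild type cystic ducts, at 8.28 and 7.63, lay close to the range of the Sox17+/- gallbladders.

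Most collagen chains that differed between the regions were lower in the cystic duct than in the gallbladder of ICR wild type embryos. Of 41 chains, 17 fell and 1, Col18a1, rose (limma, adjusted over all genes), while 14.3% of all genes passed, 8.61% lower and 5.73% higher. Apart from Col1a2, whose signals lie near the top of the array's range, the falls ran from 1.77-fold for Col4a1 to 8.0-fold for Col19a1. The median change over the 41 chains was -0.66 log2, against -0.03 over all genes tested, with 31 chains below 0 and 10 above. These calls use a spread estimated over all 10 samples. With the spread taken from the 4 compared samples alone, 0 of 41 chains passed, as did 0% of all genes, and the 18 chains then had limma adjusted p values of 0.142 to 0.291. Every cystic duct call below, on collagen chains and on other genes, therefore rests on the spread shared with the gallbladder groups. At an unadjusted p under 0.05, limma with all samples listed 24 of 41 chains and 31.7% of all genes.

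**Figure D1:**
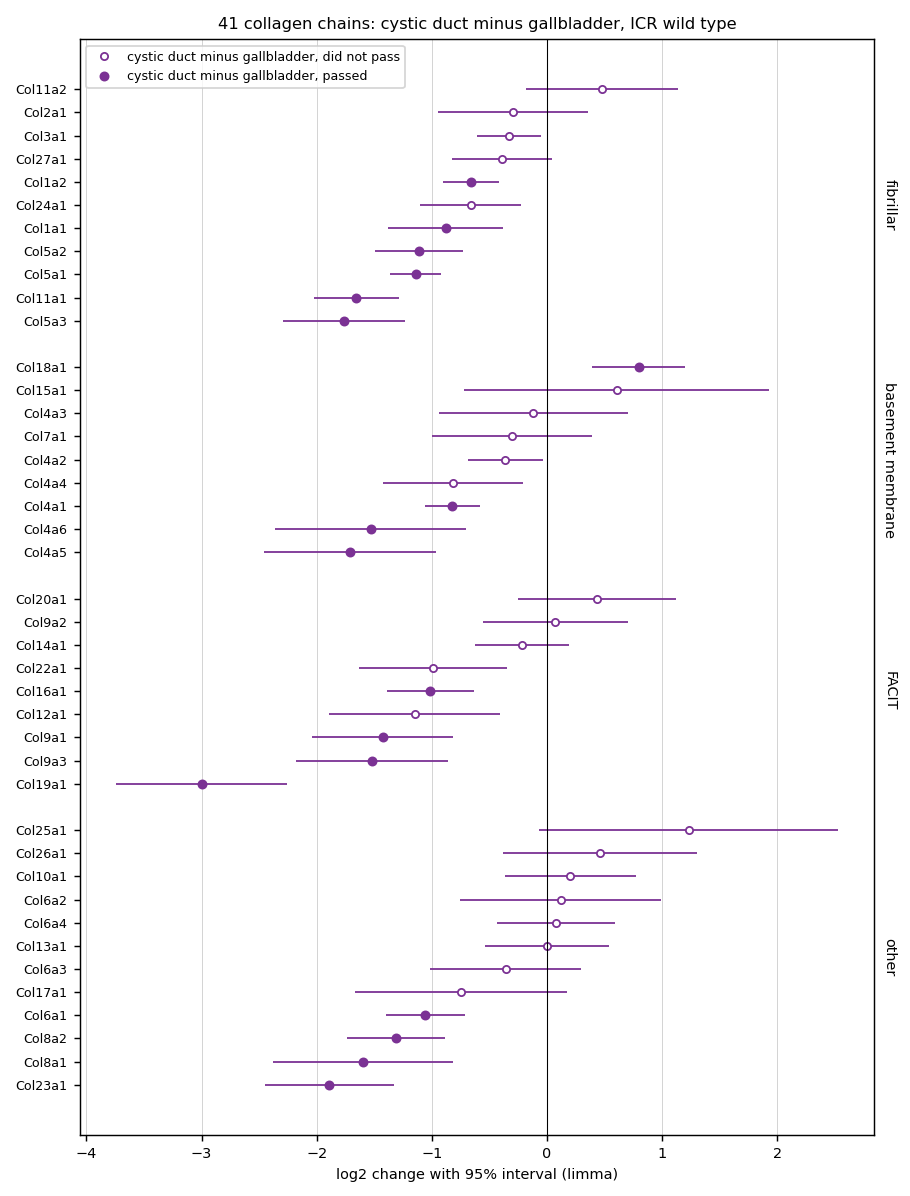
Change of each of the 41 collagen chains in ICR wild type cystic duct relative to gallbladder (x axis, log2 difference with its 95% interval by limma, n = 2 each), 1 chain per line, grouped by class. Filled points passed the threshold; 17 lie below 0 and Col18a1 alone lies above it.

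Among the fibrillar chains, 6 of 11 fell in the cystic duct and 0 rose, and the class median was -0.66 log2. Col5a1, a chain of type V collagen that is built into type I fibrils and limits their width, had log2 signals of 11.78 and 11.73 in the cystic ducts, against 12.90 and 12.89 in the wild type gallbladders. Col11a1, its relative of type XI collagen, best known from cartilage, had 8.11 and 8.46 in the cystic ducts, against 9.85 and 10.04 in the gallbladders. Col5a3, the third chain of type V, had 5.37 and 5.47 in the cystic ducts, against 7.22 and 7.15 in the gallbladders. For each of the 3 genes both cystic duct samples lay below both gallbladder samples, with a gap wider than the distance between replicates. The fold changes were 2.21 for Col5a1 (log2 -1.14, SE 0.097, limma adjusted p = 0.00147), 3.16 for Col11a1 (log2 -1.66, SE 0.16, adjusted p = 0.002) and 3.40 for Col5a3 (log2 -1.76, SE 0.23, adjusted p = 0.00392). A second probe set of Col5a3 gave 0.14, and the other probe sets of Col5a1 gave -0.70 and -0.15. With the mean of its probe sets Col5a1 stood at -0.66 and did not pass. Col5a2, the usual partner of Col5a1 in the type V trimer, had 12.21 and 12.69 in the cystic ducts, against 13.45 and 13.67 in the gallbladders, a 2.16-fold fall (limma adjusted p = 0.00593). Both cystic duct samples were again the lower pair, so all 3 type V chains fell.

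The chains of type I collagen, the main fibre of connective tissue, also fell. Col1a2 had log2 signals of 14.06 and 14.31 in the cystic ducts, against 14.85 and 14.85 in the gallbladders (log2 -0.66 as read, limma adjusted p = 0.00775), and Col1a1 had 11.32 and 12.02, against 12.42 and 12.69 (1.84-fold, adjusted p = 0.0332). Neither gene's groups overlapped, but the Col1a1 call passed in only 2 of 10 fits that each left out 1 sample. Col3a1, the sole chain of type III collagen, which is laid down beside type I in soft organs, had 14.21 and 14.51 in the cystic ducts, against 14.71 and 14.67 in the gallbladders, and did not pass (log2 -0.33, limma adjusted p = 0.103). Both Col1a2 and Col3a1 lie close to the top of the deposited range (15.15), so the size of their differences on these probe sets is uncertain. Their dimmer probe sets gave -0.42 and -1.46 for Col1a2 and -0.99 for Col3a1. Col24a1, a chain found with type I fibrils in developing bone, did not pass (log2 -0.66, limma adjusted p = 0.0531). Its signals of 4.06 and 4.13 in the cystic ducts were below the floor on low signals, against 4.81 and 4.71 in the gallbladders. Its mean of 4.49 over all samples was just above that floor, so this difference is uncertain.

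Of the 9 basement membrane chains, 3 fell and 1 rose, with a class median of -0.36. Col4a1 had log2 signals of 11.54 and 11.52 in the cystic ducts, against 12.32 and 12.38 in the gallbladders, and fell 1.77-fold (log2 -0.82, SE 0.10, limma adjusted p = 0.00337). Its partner Col4a2 had 9.78 and 9.74 in the cystic ducts, against 10.22 and 10.03 in the gallbladders (log2 -0.36, adjusted p = 0.125). On the probe sets read, both genes were lower in both cystic duct samples, but only Col4a1 passed. Whether the change differs between these genes was not tested. A dimmer probe set of Col4a1 overlapped, with 9.17 and 9.85 in the cystic ducts against 9.80 and 9.82 in the gallbladders (log2 -0.29). Col4a5 and Col4a6 encode the chains of a type IV network typical of smooth muscle and are transcribed away from each other on the X chromosome, from starts 1343 bases apart. Col4a5 had 9.45 and 10.45 in the cystic ducts, against 11.48 and 11.84 in the gallbladders (3.27-fold, limma adjusted p = 0.0139). Col4a6 had 7.22 and 8.40 in the cystic ducts, against 9.18 and 9.51 in the gallbladders (2.89-fold, adjusted p = 0.0291). In both genes the first cystic duct sample lay well below the second, and both lay below the gallbladders. Col4a6 passed in 2 of 10 fits that left out 1 sample, and not with the mean of its probe sets (-1.18). Col4a4, which joins Col4a3 and Col4a5 in the network of the kidney filter, stood at -0.82 (limma adjusted p = 0.0763) and Col4a3 at -0.12, and neither passed.

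Col18a1 ran the other way. It encodes the chain of collagen XVIII, a heparan sulphate proteoglycan of basement membranes whose end piece is endostatin. Its log2 signals were 10.62 and 10.65 in the cystic ducts, against 9.99 and 9.68 in the wild type gallbladders of ICR, a 1.74-fold rise (log2 0.80, SE 0.17, limma adjusted p = 0.0231), and a second probe set gave 1.41. Both cystic duct samples lay above all 8 gallbladder samples, a separation seen in 1 of 41 chains and in 11.5% of all genes. The call was lost in 3 of 10 fits that left out 1 sample, on the values as deposited (log2 0.42) and after centring on medians (0.53). Col15a1, the other chain of this small subfamily, had 7.46 and 9.67 in the cystic ducts, against 8.02 and 7.89 in the gallbladders, so 1 cystic duct sample lay below and the other far above (log2 0.60, not passed).

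In the FACIT class 4 of 9 chains fell and 0 rose, with a median of -1.01. Col19a1, which mice need for the muscle of the lower oesophagus, had the largest change of any collagen chain. Its log2 signals were 5.83 and 4.82 in the cystic ducts, against 8.17 and 8.48 in the gallbladders, an 8.0-fold fall (log2 -3.0, SE 0.32, limma adjusted p = 0.00216). The cystic duct signals were near the floor on low signals. A second probe set gave -3.67 and a dim one 0.23. Col9a1, a chain of type IX collagen, which decorates cartilage fibrils, had 9.22 and 9.31 in the cystic ducts, against 10.42 and 10.97 in the gallbladders (2.69-fold, limma adjusted p = 0.0131). Col9a3 had 7.34 and 7.78 in the cystic ducts, against 8.73 and 9.43 in the gallbladders (2.87-fold, adjusted p = 0.0137), while the third chain of the trimer, Col9a2, had 7.29 and 8.04 against 7.68 and 7.50 and did not pass (log2 0.07). The type IX chains thus did not all pass: Col9a1 and Col9a3 separated the regions and Col9a2 overlapped. Col16a1, which binds several matrix networks, fell 2.02-fold, with 9.79 and 10.12 in the cystic ducts against 10.85 and 11.09 in the gallbladders (limma adjusted p = 0.00826). Col12a1, which coats type I fibrils, and Col22a1, found where muscle meets tendon, just missed the threshold at -1.15 (adjusted p = 0.0508) and -0.99 (adjusted p = 0.051).

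Among the 12 other chains tested, 4 fell and 0 rose, with a median of -0.18. Col23a1, a transmembrane collagen, had log2 signals of 6.73 and 6.28 in the cystic ducts, against 8.23 and 8.55 in the gallbladders (3.71-fold, log2 -1.89, SE 0.24, limma adjusted p = 0.00379). Its other probe sets gave -2.89 and -1.87, in the same direction. Col8a2, a chain of the short network collagen VIII of vessels and the cornea, had 8.80 and 9.27 in the cystic ducts, against 10.30 and 10.39 in the gallbladders (2.48-fold, adjusted p = 0.00496). Its partner Col8a1 had 5.08 and 4.73, against 6.37 and 6.64 (3.03-fold, adjusted p = 0.0201), but its other probe sets gave -0.46 and 0.85, and with their mean (-0.40) it did not pass. Of collagen VI, a beaded filament around cells, 1 of 4 chains tested passed. Col6a1 had 10.97 and 11.40 in the cystic ducts, against 12.20 and 12.28 in the gallbladders (2.08-fold, limma adjusted p = 0.00503), whereas Col6a2 (0.12) and Col6a3 (-0.36) did not pass. The Col6a2 value rests on wild type gallbladder replicate 1 at 11.37, against 12.81 in replicate 2 and 12.99 to 13.10 in the other 6 gallbladder samples; its other probe set gave -0.88. Col25a1, a transmembrane collagen of neurons, had 6.65 and 8.77 in the cystic ducts, against 6.55 and 6.40 in the gallbladders, and did not pass (log2 1.23, adjusted p = 0.177).

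**Figure D2:**
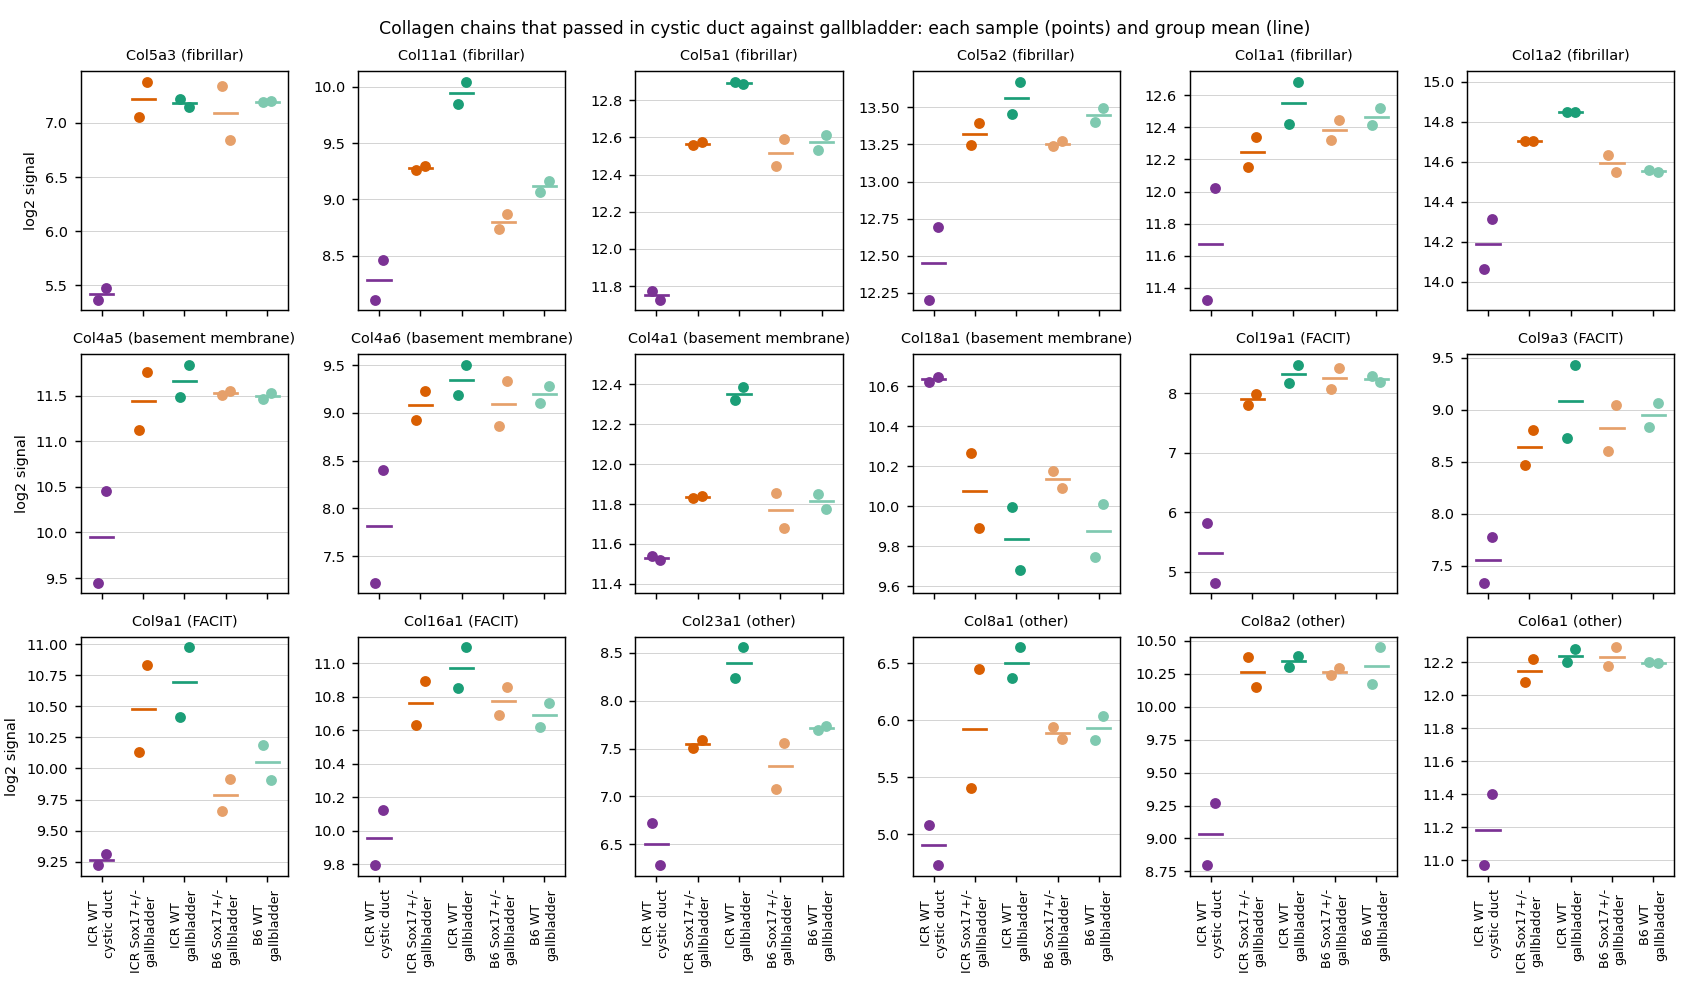
Log2 signal (y axis) of the 18 chains that passed for cystic duct against gallbladder, 1 panel per gene, with 1 point per sample in the 5 groups and a bar at each group mean. In 17 panels the cystic duct points lie below both ICR wild type gallbladder points, and in the Col18a1 panel they lie above.

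Several chains that did not pass had cystic duct samples far apart from each other. Col6a3, the large chain of collagen VI, had 11.95 and 13.003 in the cystic ducts, against 12.91 and 12.76 in the gallbladders. Col12a1 had 8.86 and 10.06 in the cystic ducts, against 10.54 and 10.67 in the gallbladders, and Col17a1, a transmembrane collagen of hemidesmosomes, had 5.32 and 4.01, against 5.55 and 5.27 (log2 -0.75). The first cystic duct sample lay far below the second for Col6a3 and Col12a1, and far above it for Col17a1. Col14a1, a FACIT chain of tendon and skin, had 11.74 and 11.91 in the cystic ducts, against 11.96 and 12.12 in the gallbladders (log2 -0.21), and Col27a1 had 8.85 and 9.15, against 9.46 and 9.33 (log2 -0.39). For these genes the cystic duct samples were lower without overlap but by small amounts. Of the cartilage chains other than Col9a1, Col9a3 and Col11a1, Col2a1, the chain of type II collagen, had 5.37 and 5.99 in the cystic ducts, against 6.08 and 5.87 in the gallbladders (log2 -0.30). Col10a1, the chain of hypertrophic cartilage, had 4.37 and 5.12, against 4.49 and 4.60 (log2 0.20), and Col11a2 had 5.24 and 5.99, against 5.27 and 4.998 (log2 0.48). All 3 overlapped between the regions and were dim. Col7a1, the chain of the anchoring fibrils under epithelia, had 6.53 and 5.64 in the cystic ducts, against 6.51 and 6.27 in the gallbladders (log2 -0.30), and also overlapped. Col13a1, a transmembrane collagen of cell contacts, had 6.96 and 7.57 in the cystic ducts, against 7.37 and 7.17 in the gallbladders, a difference of -0.0017 between means.

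Both cystic duct samples lay below all 8 gallbladder samples of either strain and genotype in 20 of 41 chains, against 16.3% of all genes. By class these were 7 fibrillar, 4 basement membrane, 5 FACIT and 4 other chains. The fibrillar chains counted include Col24a1, whose cystic duct signals lay below the floor on low signals. Against the 2 ICR wild type gallbladders alone, 25 chains had both cystic duct samples lower (27.6% of all genes) and 3 higher (21.7%). The cystic duct samples were not equal in this. The median difference of the chains from the mean of the ICR wild type gallbladders was -0.79 log2 in the first and -0.55 in the second. Over all genes it was -0.024 and -0.041. Without the first cystic duct sample, Col25a1 stood at 2.29, Col15a1 at 1.71, Col26a1 at 1.07 and Col11a2 at 0.85. Of the 15 chains that passed and have several probe sets, 12 had the same sign on all of them; the exceptions were Col19a1, Col5a3 and Col8a1. Among neighbouring genes the changes were Col9a1 -1.43 beside Col19a1 -3.0, and Col5a2 -1.11 beside Col3a1 -0.33. Col4a1 was at -0.82 beside Col4a2 at -0.36, and Col4a5 at -1.71 beside Col4a6 at -1.53. Col4a4 was at -0.82 beside Col4a3 at -0.12, and Col6a1 at -1.06 beside Col6a2 at 0.12. Col6a4 was at 0.08 beside Col6a5, which was not tested.

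Genes that fold, modify and link collagen chains were read beside them. Of 19 folding and modification genes 7 fell in the cystic duct and 0 rose, with a median of -0.60. P4ha2, a prolyl 4-hydroxylase subunit that stabilises the triple helix, had log2 signals of 7.46 and 7.50 in the cystic ducts, against 9.18 and 9.35 in the gallbladders (log2 -1.78). Serpinh1, the collagen chaperone of the endoplasmic reticulum, had 11.50 and 11.66 in the cystic ducts, against 12.85 and 12.60 in the gallbladders (log2 -1.14). Both were low in both cystic duct samples, and P4ha1 (-0.87), P3h3 (-0.92), Fkbp14 (-0.997), Colgalt1 (-0.60) and Creb3l1 (-0.61) also fell. Of 9 genes of propeptide removal and crosslinking, 4 fell, namely the crosslinking oxidases Lox (-1.47) and Loxl1 (-1.12) and the proteases Tll1 (-1.17) and Adamts3 (-1.11). Pcolce2, an enhancer of propeptide removal, rose, with 7.96 and 7.65 in the cystic ducts against 5.46 and 5.65 in the gallbladders (log2 2.25). Among the genes that did not pass, P3h4, Mia3 and Pcolce were low in ICR wild type gallbladder replicate 1. They had 7.89, 6.86 and 9.41 there, against 9.84, 8.87 and 11.74 in replicate 2. Of 8 collagen receptor genes and of 8 breakdown genes, 0 passed by limma, with 1 and 3 at an unadjusted p under 0.05, a threshold that 31.7% of all genes met.

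Markers of other cell types differed between the regions as well. The summed linear signal of 8 hepatocyte genes was 134954 and 109303 in the cystic ducts, against 32082 and 24509 in the wild type gallbladders of ICR, and 7 of 8 rose. Of 5 erythroid genes tested 4 rose, and their sums were 20538 and 8539 in the cystic ducts, against 2391 and 1160 in the gallbladders. Of 7 smooth muscle genes 5 fell, with sums of 5576 and 9514 in the cystic ducts, against 23744 and 25320 in the gallbladders. Fibroblast sums overlapped, at 26353 and 49042 in the cystic ducts, against 37541 and 47286 in the gallbladders, and 2 of 8 genes fell, Dpt (-1.96) and Tcf21 (-0.54). Of 8 chondrocyte markers, read because type IX and XI chains are known from cartilage, 5 were above the floor and 1 of these, Matn4, rose (0.91), and the sums overlapped, at 225 and 194 in the cystic ducts, against 200.3 and 264 in the gallbladders. Endothelial sums overlapped, at 2209 and 4088 in the cystic ducts, against 3283 and 2833 in the gallbladders, and 2 of 7 genes fell, Tek (-0.998) and Emcn (-1.26). Of 7 biliary epithelium genes Krt18 rose (0.59) and Krt19 fell (-1.15), with sums of 11689 and 12006 in the cystic ducts, against 10506 and 12046 in the gallbladders. Of 5 mesothelium genes tested Msln fell (-0.86). The cystic ducts thus held more hepatocyte and erythroid signal and less smooth muscle signal. The part of these markers in the collagen values, Col18a1 and the smooth muscle type IV chains included, was not tested.

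**Figure D3:**
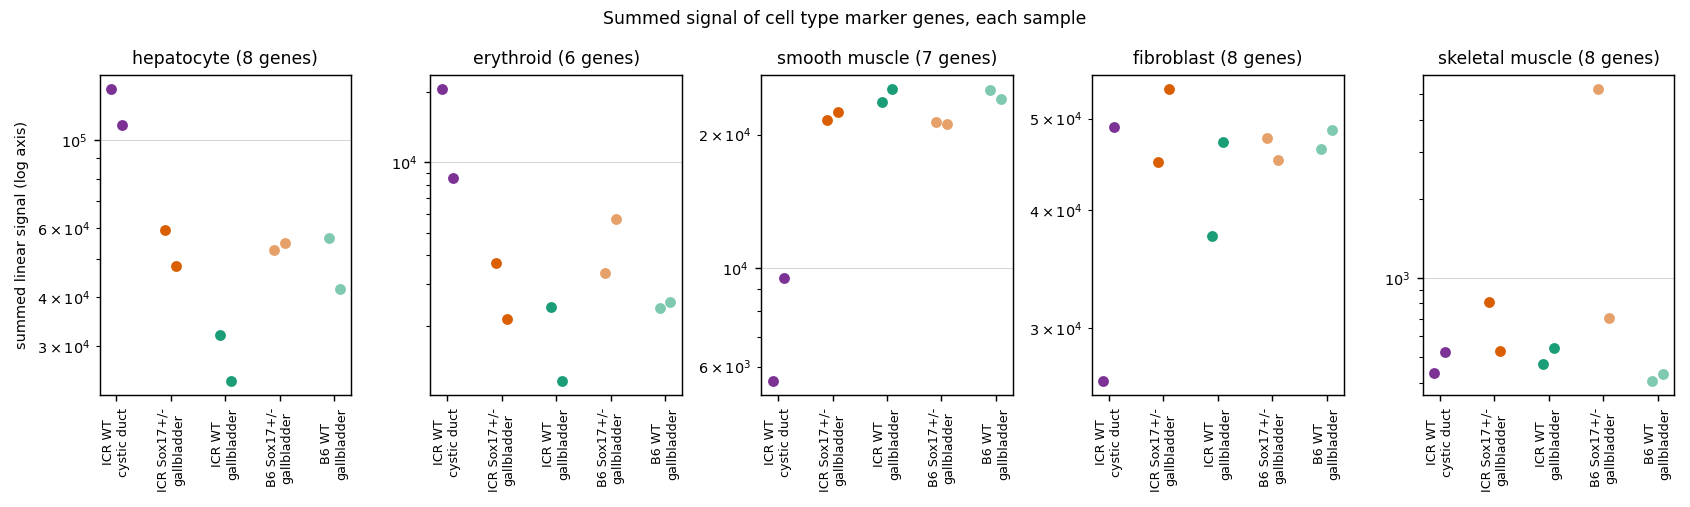
Summed linear signal (y axis, log scale) of the measured hepatocyte, erythroid, smooth muscle, fibroblast and skeletal muscle marker genes, 1 point per sample in the 5 groups. Hepatocyte sums are highest in both cystic ducts (134954 and 109303), smooth muscle sums are lowest there, and fibroblast sums overlap between the regions.

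In Sox17+/- gallbladders no collagen chain passed the threshold. With both strains in 1 comparison 0 of 41 passed (limma, 0.0544% of all genes), in ICR 0 (0.0068%) and in B6 0 (0.0068%). At an unadjusted p under 0.05 limma listed 6 chains for both strains (3.55% of all genes), 7 in ICR (5.28%) and 1 in B6 (1.31%). Weighting arrays by their quality gave 2 over both strains, Col11a1 and Col22a1, and a fit of the 8 gallbladder samples alone gave 0 (0.531% of all genes). The median change of the 41 chains was -0.06 log2 with the strains together, -0.13 in ICR and -0.05 in B6, against -0.00095, -0.013 and 0.004 over all genes. The 95% interval lay within 1 log2 unit of 0 for 37 of 41 chains over both strains, and within 0.5 for 16. Changes smaller than these intervals were not detectable with 2 samples a group.

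The 6 chains at an unadjusted p under 0.05 with the strains together were Col11a1, Col22a1, Col4a1, Col23a1, Col5a1 and Col24a1, each with a negative change in Sox17+/- gallbladder. Of these, Col24a1 lay near the floor on low signals, with a mean of 4.49. Col11a1 had log2 signals of 9.26 and 9.30 in Sox17+/- gallbladders of ICR, against 9.85 and 10.04 in wild type, and 8.74 and 8.87 in Sox17+/- gallbladders of B6, against 9.07 and 9.17 in wild type. Every Sox17+/- sample lay below every wild type sample of its strain. The change over both strains was -0.49 (SE 0.11, limma adjusted p = 0.396), and with the 8 gallbladder samples alone the adjusted p was 0.0521. Its second probe set gave -1.17 in ICR and -0.39 in B6. Col22a1 had 4.79 and 5.42 in Sox17+/- gallbladders of ICR, against 6.20 and 6.19 in wild type, and 5.26 and 5.52 in B6, against 6.02 and 5.87. These groups were also apart in both strains, by -0.82 (SE 0.20, limma adjusted p = 0.42), though 2 dimmer probe sets gave -0.37 and 0.04. Col23a1 had 7.50 and 7.59 in Sox17+/- gallbladders of ICR, against 8.23 and 8.55 in wild type, and 7.08 and 7.56 in B6, against 7.69 and 7.74 (log2 -0.62, adjusted p = 0.672). The other probe sets of Col23a1 gave -0.66 and -0.65. Groups did not overlap in either strain and ran the same way for 4 lower chains, these 3 and Col5a2, and for 1 higher chain, Col27a1, which is 4 and 1 of 41 against 5.99% and 4.82% of all genes.

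Col4a1 differed by -0.52 in ICR, with 11.83 and 11.84 in Sox17+/- gallbladders against 12.32 and 12.38 in wild type (limma adjusted p = 0.464). In B6 its signals were 11.86 and 11.68 in Sox17+/- gallbladders, against 11.85 and 11.78 in wild type, so the groups overlapped. On a dimmer probe set of Col4a1 the groups were apart in both strains, at -0.46 in ICR and -0.21 in B6. As read, the strain difference in the genotype effect of Col4a1 was 0.47 (SE 0.15), against 0.25 on the dimmer probe set. The value as read had the lowest unadjusted limma p among the chains for that test, 0.012, but did not pass (limma adjusted p = 1). For that difference 0 of 41 chains passed, against 0% of all genes, with 1 at an unadjusted p under 0.05 by limma (1.03% of all genes). Col4a2 had 9.76 and 10.10 in Sox17+/- gallbladders of ICR, against 10.22 and 10.03 in wild type, and overlapped. Of the type V chains, Col5a1 had 12.56 and 12.57 in Sox17+/- gallbladders of ICR, against 12.90 and 12.89 in wild type (log2 -0.33), but 12.44 and 12.59 in B6 against 12.53 and 12.61. As read, its groups were apart in ICR and overlapped in B6, a strain difference in the genotype effect of 0.27. Its dimmer probe sets gave -0.05 and -0.27 for that difference. In ICR the groups overlapped on both dimmer probe sets, at 0.02 and -0.14. In B6 they overlapped on the brighter of these, at -0.03, and were apart and lower in Sox17+/- on the other, at -0.41. Col27a1 ran the other way, with 9.64 and 9.48 in Sox17+/- gallbladders of ICR against 9.46 and 9.33 in wild type, and 9.06 and 8.61 in Sox17+/- gallbladders of B6 against 8.42 and 8.34 (log2 0.31, limma adjusted p = 1). Its groups were apart in both strains, narrowly in ICR. A second probe set of Col27a1 gave 0.27 in B6, but -0.06 in ICR, where its groups overlapped. Col12a1 and Col6a2 had groups that were apart in both strains but in opposite directions, as had 6.14% of all genes. Groups did not overlap within ICR for 12 lower and 6 higher chains (21.1% and 17.9% of all genes) and within B6 for 8 lower and 6 higher (20.7% and 20.4%).

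**Figure D4:**
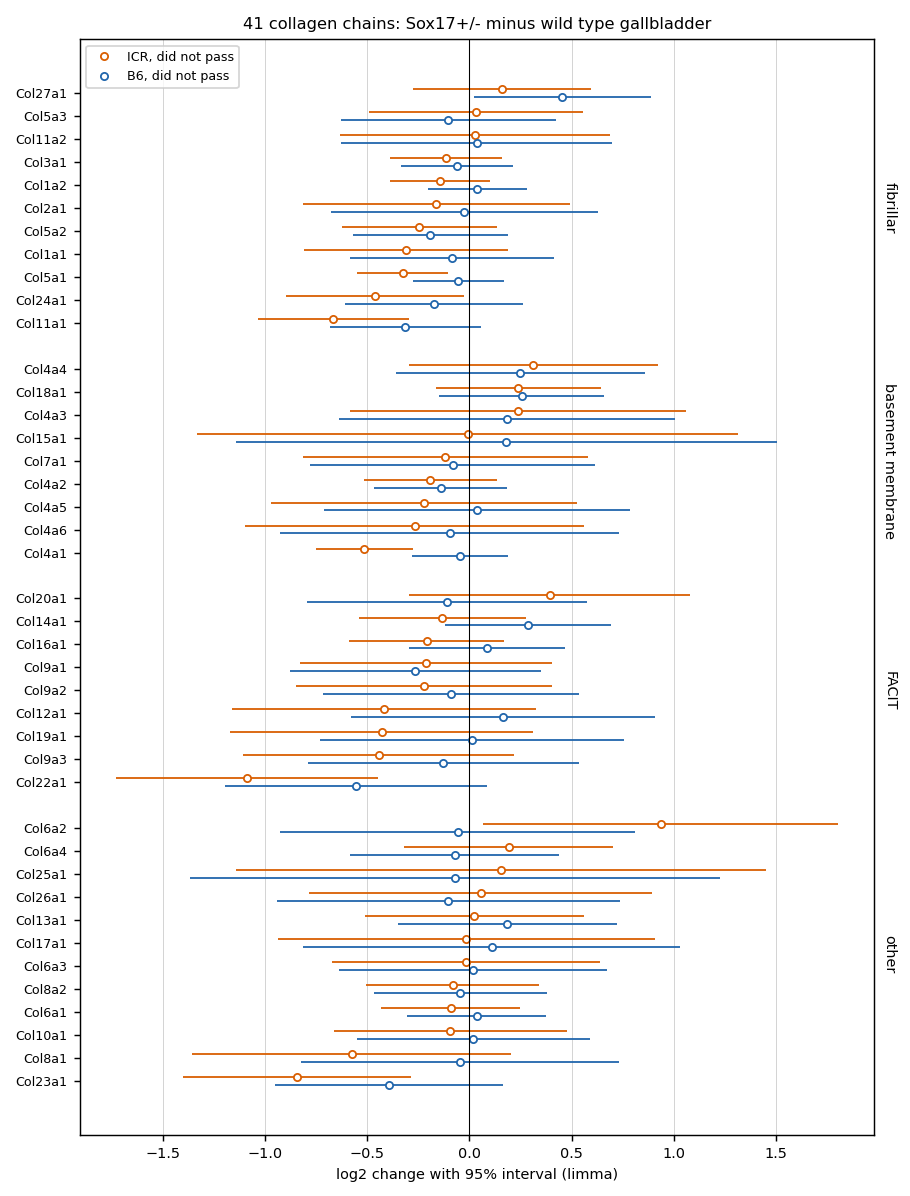
Change of each of the 41 collagen chains in Sox17+/- relative to wild type gallbladder (x axis, log2 difference with its 95% interval by limma, n = 2 each), with ICR and B6 drawn as separate points on each line. No chain passed the threshold; Col22a1 is at -1.09 in ICR and -0.56 in B6.

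The ICR genotype comparison and the cystic duct comparison share the same 2 ICR wild type gallbladder samples, so their values are not independent. Chains negative in both included Col11a1, at -1.66 in the cystic duct and -0.67 in Sox17+/- gallbladder of ICR, and Col23a1, at -1.89 and -0.85. Col4a1 was at -0.82 and -0.52, and Col5a1 at -1.14 and -0.33. In B6, which shares no sample with the cystic duct comparison, the same chains were at -0.31 (Col11a1), -0.40 (Col23a1), -0.05 (Col4a1) and -0.0549 (Col5a1). Other probe sets in B6 gave -0.39 for Col11a1, -0.36 and -0.33 for Col23a1, -0.21 for Col4a1, and -0.03 and -0.41 for Col5a1. Not every chain ran this way. Col18a1 was at 0.80 in the cystic duct, 0.24 in Sox17+/- gallbladder of ICR and 0.26 in that of B6. Its genotype groups overlapped in ICR and were apart in B6. Col27a1 was at -0.39 in the cystic duct, 0.16 in ICR and 0.45 in B6, and Col20a1 at 0.43, 0.39 and -0.11. Col6a2 gave 0.94 in ICR, which rests on the low wild type replicate 1 named above. The folding, processing, receptor and breakdown genes had 0 calls by limma in each of the genotype comparisons. At an unadjusted p under 0.05 limma listed 2 folding genes and none of the others over both strains, and 3 folding genes and 1 processing gene in ICR. In B6 the groups of 10 of 19 folding genes were apart and lower in Sox17+/-, and of 2 higher (20.7% and 20.4% of all genes). In ICR they were apart for 3 lower and 3 higher folding genes (21.1% and 17.9%). Of 8 receptor genes 4 were apart and lower in B6 and 0 higher, and 2 lower and 1 higher in ICR. Hepatocyte markers had a median difference in Sox17+/- gallbladder of 1.47 in ICR, where the groups of 7 of 8 genes were apart and higher, and of 0.20 in B6. Their sums were 59143 and 47907 in Sox17+/- gallbladders of ICR, against 32082 and 24509 in wild type, and 52568 and 54886 in Sox17+/- gallbladders of B6, against 56562 and 41862. With both strains 0 hepatocyte genes passed, and 1 passed with the 8 gallbladder samples alone. Smooth muscle markers had a median of -0.25 over both strains. Of 7 genes 5 were apart and lower in B6 and 0 higher, and in ICR 3 were lower and 2 higher. Skeletal muscle sums were 5218 and 702 in Sox17+/- gallbladders of B6, against 407 and 433 in wild type, with replicate 3 far above the rest. Gene by gene, 6 of 8 skeletal muscle markers were apart and higher in each strain, with a median of 1.22 over both. Erythroid markers were above 0 in 5 of 5 genes over both strains (median 0.82), with 4 apart and higher in B6 and 1 in ICR. The part of all these markers in the collagen values was not tested.

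Between the strains, 2 of 41 chains passed, both lower in B6 than in ICR gallbladder over both genotypes, against 1.35% of all genes (0.939% lower and 0.408% higher). Col27a1, a fibrillar chain of developing cartilage, had log2 signals of 9.06 and 8.61 in Sox17+/- and 8.42 and 8.34 in wild type gallbladders of B6, against 9.64 and 9.48 in Sox17+/- and 9.46 and 9.33 in wild type gallbladders of ICR. All 4 B6 samples lay below all 4 ICR samples, a 1.83-fold difference (log2 -0.87, SE 0.13, limma adjusted p = 0.0251). The call held in 4 of 10 fits that left out 1 sample, with adjusted p values up to 0.157. Col11a1 likewise lay between 8.74 and 9.17 in B6 and between 9.26 and 10.04 in ICR, without overlap, a 1.57-fold difference (log2 -0.65, SE 0.11, limma adjusted p = 0.0384). Its call held in 2 of 10 such fits, those without a cystic duct sample, with adjusted p values up to 0.206. The second probe sets gave only -0.04 for Col27a1 and -0.19 for Col11a1, so the size differs between the probe sets of each gene. On these second probe sets the Sox17+/- means were higher in B6, at 8.69 against 8.57 for Col27a1 and 8.98 against 8.78 for Col11a1. Only the wild type means were lower in B6, at 8.42 against 8.63 and 9.37 against 9.95.

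Neither chain of the common type IV collagen passed between the strains. The difference was -0.30 for Col4a1 (limma adjusted p = 0.102) and 0.32 for Col4a2 (adjusted p = 0.213), and the second Col4a1 probe set gave 0.07. For Col4a2 all 4 B6 samples (10.27 to 10.45) lay above all 4 ICR samples (9.76 to 10.22). For Col4a1 the ranges were 11.68 to 11.86 in B6 and 11.83 to 12.38 in ICR, and they overlapped. With the strains compared within each genotype, 5 of the 41 chains were lower and 2 higher in B6 without overlap (8.89% and 17.3% of all genes). With the 8 gallbladder samples alone 5 chains passed, all lower in B6, namely Col11a1, Col27a1, Col15a1, Col1a2 and Col4a1, against 8.92% of all genes. For Col1a2 the probe set read is near the top of the range, and the other probe sets gave 0.18 and 0.22, the opposite direction. Of the collagen-handling genes, Plod2, which hydroxylates the lysines used for crosslinks, had log2 signals of 7.54 to 8.96 in B6 and 9.77 to 10.59 in ICR, a difference of -2.16 (limma adjusted p = 0.0236). Serpinh1 was higher in B6 (0.56, adjusted p = 0.0258), and Timp3, an inhibitor of matrix proteases, lower (-0.79, adjusted p = 0.0449). Markers of other cell types differed between the strains too. Leukocyte markers had differences above 0 in 6 of 6 genes, with Lyz2 higher in B6 (1.37), hepatocyte markers in 8 of 8 (median 0.47) and erythroid markers in 5 of 5 (median 0.68). Of 7 smooth muscle genes Myocd was lower in B6 (-1.57). The part of these markers in the collagen differences was not tested.

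**Figure D5:**
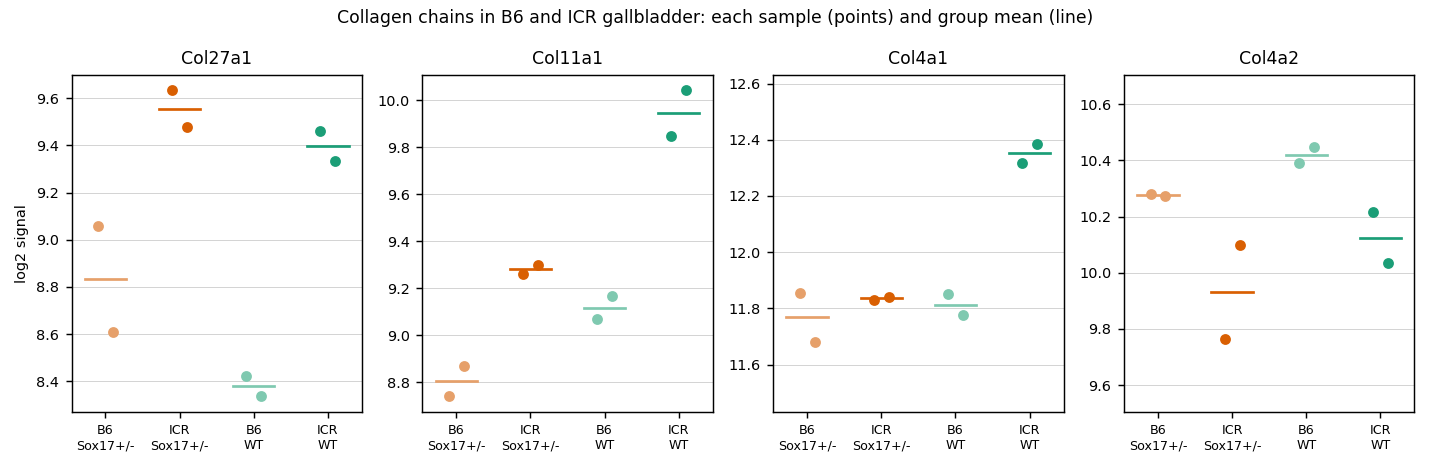
Log2 signal (y axis) of Col27a1, Col11a1, Col4a1 and Col4a2 in the 8 gallbladder samples, B6 left of ICR, with Sox17+/- and wild type marked. B6 points lie below all ICR points for Col27a1 and Col11a1 and above them for Col4a2.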

How the data were processed

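The authors deposited log2 signals per probe set for 10 arrays, per the labels. Which program, background correction and normalization made them is not given in the sources used here. Per the labels' protocols, the RNA was Trizol-extracted and labelled with biotin. Groups were read from titles and label fields. The records swap the tags for stage and genotype, so the entries themselves were used. Array batches are not labelled. The series calls the replicates biological, but no label names separate animals or litters, so p-values measure only the spread between these samples. Precision is limited by the number of arrays.

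Of 45101 probe sets, 64 were controls, 932 belong to several genes and 9160 to none in the platform annotation, and these were left out. Deposited sample medians spanned 5.51 to 6.07, beyond a tolerance of 0.2, hence the quantile normalization. The brightest probe set stood for each of 18193 genes (names in _x_at only where no other was present), and 14696 genes exceeded the 30th percentile of probe-set means. limma 3.58.1 in R 4.3.3 fitted a mean for each group with trended variances (5 residual and 7.95 total degrees of freedom), and p-values were adjusted by Benjamini-Hochberg over all genes tested, at 0.05. The steps were tested on simulated data.

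The members and lists were chosen with earlier results of these data known. Named genes are Sox17, every chain that passed, up to 6 chains per comparison and direction by p where fewer passed, their trimer or gene-pair partners, and list genes that passed or had the smallest p. Further chains were named with their values known. The alternatives tried were other scalings, filters, probe-set rules and variance models, the compared groups alone, the replicate number as a block, and each sample left out. The fit of the 8 gallbladder samples was chosen after seeing the data. Figures used matplotlib 3.10.9 and pandas 2.3.3 under Python 3.11.15.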

Additional observations from a re-analysis of the deposited data

Results flagged for a closer look

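The genotype groups of 2 chains did not overlap in either strain and ran opposite ways in ICR and B6, as 902 of 14696 genes did (6.14%). Col12a1 had log2 signals of 10.12 and 10.26 in Sox17+/- gallbladders of ICR, against 10.54 and 10.67 in wild type (-0.42), and 10.27 and 10.33 in Sox17+/- gallbladders of B6, against 10.17 and 10.10 in wild type (0.16). The difference between the strains was 0.58 and did not pass (limma adjusted p = 1). Col6a2 had 13.03 and 13.02 in Sox17+/- gallbladders of ICR, against 11.37 and 12.81 in wild type (0.94), and 12.99 and 13.05 in Sox17+/- gallbladders of B6, against 13.05 and 13.10 in wild type (-0.06). The difference was -0.99 (limma adjusted p = 1) and did not pass. The second probe set of Col6a2 gave -0.09 in ICR, and the other probe sets of Col12a1 gave differences between the strains of -0.14, -0.15 and -0.22. Without wild type gallbladder replicate 2 of ICR the Col6a2 difference was -1.71 and passed.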

How the results depend on the processing

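The count of chains lower or higher in cystic duct was 18, and 0 with array weights or with only the groups compared; leaving out 1 sample gave 12 to 27, and the replicate block gave 18. The genotype counts of 0 stayed 0 under the replicate block and with the 8 gallbladder samples; array weights gave 2 over both strains, and leaving out 1 sample gave 0 to 1 over both strains, in ICR and for the strain difference, the 1 being Col6a2 where wild type replicate 2 of ICR was left out. The strain count of 2 became 1 as deposited, 0 median-centred, 1 with the mean of probe sets, 1 without the variance trend, 6 with array weights, 5 with only the groups compared or the 8 gallbladder samples, and 0 to 5 leaving out 1 sample. A replicate block was not possible for the strains, which share no replicate number. Replicate numbers were not shown to pair samples: deviations correlated at 0.377 for Sox17+/- with wild type gallbladders of ICR, 0.0748 for cystic duct with wild type gallbladder and 0.217 in B6, over 2 pairs each.

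Over all genes, 2107 passed for the cystic duct, 0 with array weights or the compared groups alone, and 821 to 7539 leaving out 1 sample. Their split was 842 higher and 1265 lower, 287 and 1603 as deposited and 391 and 1082 median-centred. The median of all genes was -0.03, -0.27 and -0.16 on these scalings, and the median of the chains relative to it -0.64, -0.46 and -0.46. For genotype over both strains 8 genes passed (3 higher, 5 lower; 2 and 8 as deposited), 1 with the replicate block, 2 without trend or with every probe set, 5 without filter, 78 with the gallbladders alone, 136 with array weights and 1 to 280 leaving out 1 sample. In ICR the count of 1 became 0 median-centred or with the block, 2 as deposited or with the compared groups, 3 with the mean of probe sets, 5 with array weights, 21 with the gallbladders alone and 0 to 374 leaving out 1 sample. In B6 the count of 1 became 0 median-centred or with the block, 2 as deposited, 5 with the gallbladders alone, 49 with the compared groups, 103 with array weights and 0 to 5 leaving out 1 sample. The strain difference in genotype gave 0 genes, and 0 to 268 leaving out 1 sample. Between strains 198 genes passed (60 higher, 138 lower; 27 and 137 as deposited, 54 and 82 median-centred), 503 with the mean of probe sets, 1434 with every probe set, 1602 with array weights, 1311 with the compared groups and 8 to 1316 leaving out 1 sample.

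Of the named chains' values, 22 changed sign, 87 no longer passed and 22 newly passed under an alternative, and 1555 kept both. Leaving out 1 sample turned Col26a1 (-0.15 to 1.07) and Col15a1 (-0.50 to 1.71) for the cystic duct, Col20a1 (-0.042 to 0.33) for genotype over both strains, Col4a3 (-0.12 to 0.49) in B6, Col26a1 (-0.33 to 0.014) and Col5a3 (-0.38 to 0.11) for the strain difference in genotype, and Col20a1 (-0.0086 to 0.36) between strains. The mean of probe sets turned Col20a1 (-0.027, both strains), Col6a4 (-0.038, ICR), Col14a1 (-0.0026, B6), Col5a1 (-0.016), Col6a4 (0.032) and Col25a1 (0.19; 0.60 with every probe set) for the strain difference, and Col1a2 (0.066), Col5a1 (0.12) and Col3a1 (-0.041) between strains. Values as deposited turned Col6a4 (-0.016, ICR), Col26a1 (0.087, strain difference), Col24a1 (-0.079) and Col20a1 (-0.028, between strains). The mean of probe sets also ended the cystic duct calls of Col5a1 (-0.66), Col8a1 (-0.40) and Col4a6 (-1.18). The cause was not tested. Where 1 sample was left out, the remaining one of its group is assumed to vary like the others.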
